A study of Mus musculus with 24 samples.

Results

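Iron handling genes were followed in mouse retinal endothelial cell lines across the 8 groups of a microarray study of Frizzled4, the receptor for the secreted ligand Norrin on vessels of the retina. The set was a list of 10 genes of iron import, storage, export and heme breakdown, found by their symbol in the platform annotation. Of these, 9 had at least 1 probe set of their own, with 22 such probe sets in all, out of 18193 genes and 45101 probe sets measured. The tenth, Ftl1 (ferritin light chain, chr7:45457944-45459886), had only probe sets shared with other symbols and was given no value. The list was chosen by measured values, since it was drawn up around the Matrigel minus gelatin difference of Slc40a1, so every Matrigel difference of these 10 genes is described here and none is tested. All coordinates are those of RefSeq on GRCm38.p6.

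The lines came from adult wild type or Fz4-/- animals of mixed sex and mixed C57Bl6/129 background. Both genotypes carried a large T-antigen transgene of SV40, a temperature-sensitive form driven by the H2Kb promoter, and both were switched to 37°C without interferon gamma before RNA was taken. In 4 groups the cells grew alone, either on gelatin or for 6 hours on Matrigel, a basement membrane extract, after 24 hours in 1% serum. Gelatin and Matrigel cultures therefore differed in substrate, replating and serum, and these cannot be told apart. In the other 4 groups the cells were grown with human HEK293 kidney cells, either control cells or a stable Norrin-expressing line, and the RNA was a mixture of both species in about equal parts, so that Norrin and other differences between these HEK293 lines cannot be told apart. Each group had 3 arrays. The labels do not say how many lines or clones were used or whether replicates were separate cultures, so the p-values below cover array-to-array spread, which may be technical.

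Cells take up transferrin-bound iron through the transferrin receptor and move it into the cytosol with divalent metal transporters. Iron that is not used is stored in ferritin or leaves through ferroportin, and heme oxygenase frees further iron from heme. Iron regulatory proteins bind iron-responsive elements in several of these messages and set their translation or stability, so that the amount of transcript is only part of their control. Retinal endothelial cells form the blood-retina barrier, which iron crosses on its way to the neural retina.

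The arrays fell into 3 sets by their median log2 intensity, at 5.02 to 5.11 for cells grown alone, 3.44 to 3.52 for wild type co-cultures and 3.21 to 3.31 for Fz4-/- co-cultures, so levels are compared only within a set. Fzd4, the deleted gene, read 8.70 ± 0.35 (SD, n = 3) in wild type and 5.06 ± 0.44 (SD, n = 3) in Fz4-/- cells on gelatin, and was lower in Fz4-/- than in wild type arrays under each of the 4 conditions. Of 12 pan-endothelial markers, the mean log2 level in wild type cells grown alone was 10.51 to 10.61 on gelatin and 10.69 to 10.81 on Matrigel. In Fz4-/- cells it was 10.80 to 10.90 on gelatin and 10.999 to 11.23 on Matrigel. It was thus higher on Matrigel in each genotype and higher in Fz4-/- cells on each substrate, without overlap. Between genotypes 5 of the 12 passed on each substrate, all higher in Fz4-/- cells, and the part of this in the iron handling differences was not tested. In 6 of the 8 groups replicate 1 stood apart from replicates 2 and 3: gene differences between replicates 2 and 3 had an SD of 0.147 to 0.193, and those of replicate 1 from either had one of 0.299 to 0.354. Values without replicate 1 are given for some of the results that this changed.

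**Figure D1:**
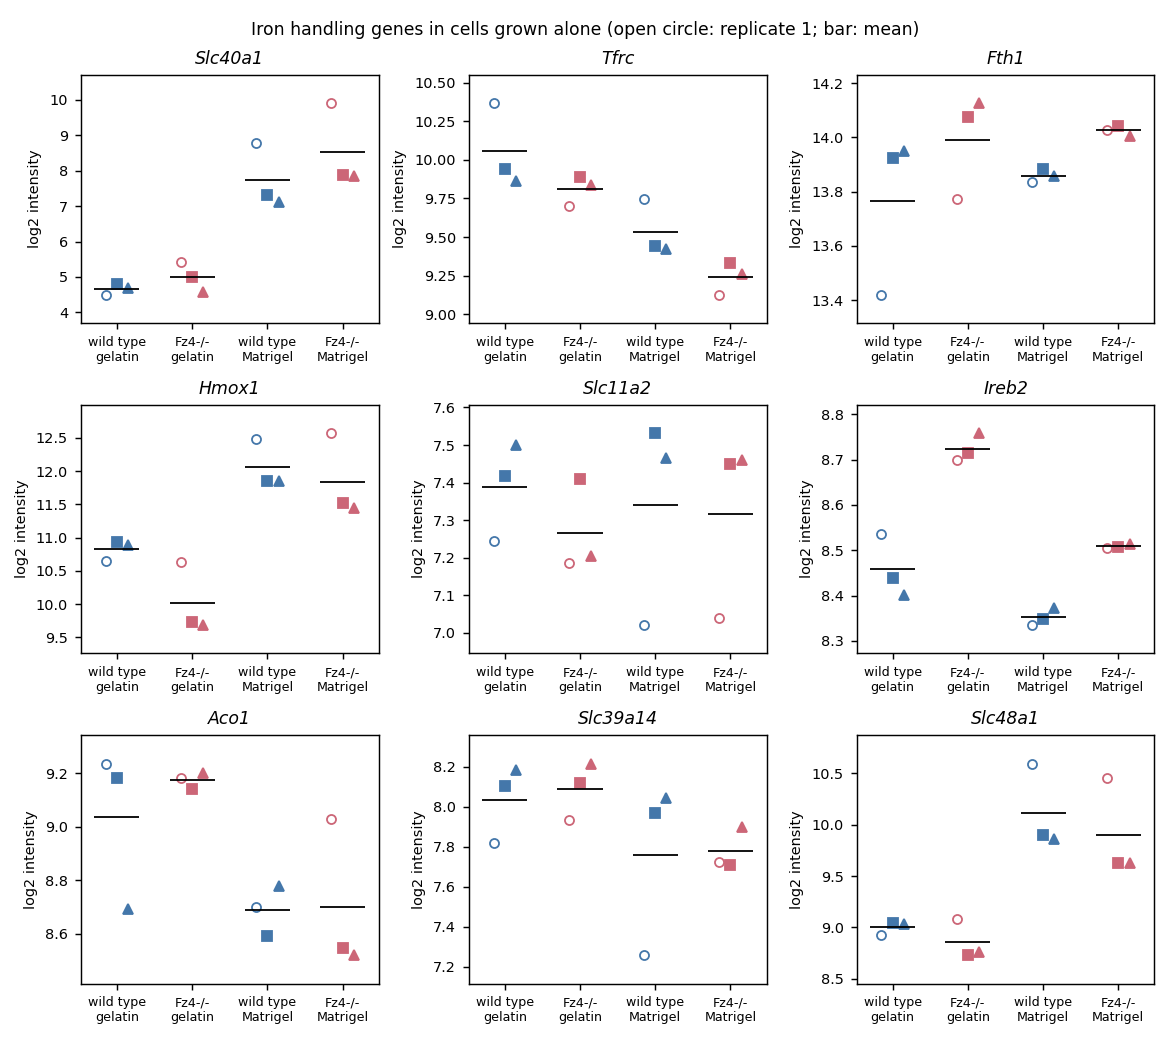
Log2 intensity of the 9 measured iron handling genes on each array of cells grown alone, 3 arrays per group, with the group mean as a bar and replicate 1 as an open circle; the vertical axes differ between genes and do not start at 0. Slc40a1, Hmox1 and Slc48a1 sit higher on every Matrigel array of a genotype than on its gelatin arrays, and Tfrc sits lower.

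Ferroportin (Slc40a1, chr1:45908070-45926532) is the only known exporter of iron from mammalian cells. Its log2 intensity was 4.50, 4.79 and 4.70 in replicates 1 to 3 of wild type cells on gelatin and 8.80, 7.30 and 7.12 on Matrigel. The Fz4-/- arrays read 5.43, 4.99 and 4.58 on gelatin and 9.90, 7.87 and 7.84 on Matrigel. The gelatin arrays lay near the array median and the Matrigel arrays well above it, with no overlap in either genotype, and replicate 1 was the highest array of both Matrigel groups. The Matrigel minus gelatin difference was 3.08 ± 0.54 (SE, n = 3 per group) in wild type and 3.54 ± 0.54 (SE, n = 3 per group) in Fz4-/- cells, which correspond to 8.43-fold and 11.6-fold. Both were rank 1 of all 18193 genes, which is how the gene came to be listed. Between arrays of the same replicate number the difference was 4.29, 2.52 and 2.42 in wild type and 4.47, 2.88 and 3.26 in Fz4-/- cells. Without replicate 1 of every group it was 2.47 and 3.07. The second probe set of the gene gave 3.40 and 3.96.

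In order of the mean log2 level of Slc40a1 in cells grown alone, Fz4-/- Matrigel stood first at 8.54 ± 1.18 (SD, n = 3), then wild type Matrigel at 7.74 ± 0.92, Fz4-/- gelatin at 5.001 ± 0.43 and wild type gelatin at 4.66 ± 0.15. The neighbours that share a substrate overlapped. Fz4-/- exceeded wild type by 0.80 ± 0.54 on Matrigel (95% interval -0.37 to 1.97, limma adjusted p = 0.384) and by 0.34 ± 0.54 on gelatin (95% interval -0.83 to 1.51, limma adjusted p = 0.769), and neither difference passed the test. Without replicate 1 of every group, which leaves replicates 2 and 3, the Matrigel difference between genotypes was 0.64 with a limma adjusted p of 0.0101. With single arrays left out in turn it was 0.11 to 1.33 and never passed. The Matrigel response itself was 0.46 ± 0.76 larger in Fz4-/- than in wild type cells, with a 95% interval of -1.20 to 2.12 and a limma adjusted p of 0.9997.

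Macrophages also use ferroportin heavily, and 12 macrophage markers were therefore read on the same arrays. Their mean log2 level was 4.08 to 4.27 on wild type gelatin arrays and 4.15 to 4.26 on wild type Matrigel arrays, and the ranges overlapped. On Fz4-/- arrays it was 4.03 to 4.18 on gelatin and 4.14 to 4.22 on Matrigel, also with overlap. The Matrigel array was the higher at each replicate number in Fz4-/- cells, but not at replicate 3 in wild type cells. In wild type cells 1 of the 12 was higher and 2 were lower on Matrigel, and in Fz4-/- cells 1 was higher. Of all genes, 18.4% and 19.7% passed in either direction. Ptprc, which encodes the pan-leukocyte antigen CD45, averaged 2.90 on wild type gelatin and 2.71 on wild type Matrigel arrays, below the median of those arrays. Cd68, a lysosomal protein of macrophages that other cells also make, averaged 9.49 and 9.56. The part of macrophages in the Slc40a1 values was not tested.

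The genes whose values over the 12 arrays of cells grown alone lay closest to those of Slc40a1, each centred on its own mean, were 1110032F04Rik (root mean square difference 0.977 on the log2 scale), Gm3715 (1.03), Tc2n (1.03), Serpinb1a (1.04) and Cxcr4 (1.04). Serpinb1a encodes an inhibitor of neutrophil serine proteases and Cxcr4 the receptor for the chemokine CXCL12. Their own Matrigel differences were 2.04 and 3.46 for Serpinb1a, and 2.11 and 1.93 for Cxcr4, in wild type and Fz4-/- cells in that order. Even these nearest genes differed from Slc40a1 by about 1 log2 unit on an average array.

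The heme genes were the other listed genes with higher Matrigel values. Hmox1 (chr8:75093618-75100593) encodes heme oxygenase 1, which opens heme and releases its iron. Its log2 intensity was 10.65, 10.93 and 10.89 on wild type gelatin and 12.48, 11.84 and 11.85 on wild type Matrigel. In Fz4-/- cells it was 10.64, 9.73 and 9.69 on gelatin and 12.57, 11.52 and 11.45 on Matrigel. Every Matrigel array exceeded every gelatin array of its genotype, by 1.24 ± 0.32 (SE, n = 3 per group) on average in wild type and 1.82 ± 0.32 in Fz4-/- cells. Slc48a1 (chr15:97784365-97792692) encodes HRG1, which carries heme out of the lysosome. It read 8.92, 9.05 and 9.03 on wild type gelatin and 10.59, 9.90 and 9.86 on wild type Matrigel. The Fz4-/- arrays read 9.08, 8.73 and 8.76 on gelatin and 10.45, 9.63 and 9.63 on Matrigel. The groups did not overlap, the mean differences were 1.12 ± 0.23 and 1.04 ± 0.23, and the second probe set gave 0.999 and 0.948.

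The transferrin receptor was lower on Matrigel. Tfrc (chr16:32608896-32632794), the main route of iron uptake, read 10.37, 9.94 and 9.86 on wild type gelatin and 9.74, 9.44 and 9.42 on wild type Matrigel. Fz4-/- arrays read 9.70, 9.89 and 9.84 on gelatin and 9.13, 9.33 and 9.26 on Matrigel. All Matrigel arrays lay below all gelatin arrays of their genotype, with mean differences of -0.52 ± 0.14 and -0.57 ± 0.14 (SE, n = 3 per group). The array also carries Tfrc as a control for RNA integrity, read at the 3' and the 5' end of the message. The 3' minus 5' difference in wild type cells was 1.33 to 1.45 on gelatin and 1.43 to 1.64 on Matrigel. For Fz4-/- cells it was 1.25 to 1.48 on gelatin and 1.42 to 2.15 on Matrigel, with the highest value on replicate 1. The ranges overlapped with the higher values on Matrigel, and the part of this measure in the Matrigel differences was not tested.

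The storage, endosomal and regulatory genes had smaller Matrigel differences. Fth1 (ferritin heavy chain, chr19:9980600-9985111) differed by 0.09 and 0.04 in wild type and Fz4-/- cells, and Slc11a2 (the endosomal iron transporter DMT1, chr15:100387898-100424209) by -0.05 and 0.05. Slc39a14 (the ZIP14 transporter of zinc and iron that is not bound to transferrin, chr14:70303467-70351452) differed by -0.28 and -0.31. Both iron regulatory proteins had lower means on Matrigel, Aco1 (IRP1, chr4:40143265-40199009) by -0.35 and -0.48 and Ireb2 (IRP2, chr9:54862658-54912534) by -0.11 and -0.22. Of the 9 genes, 5 in wild type and 7 in Fz4-/- cells had arrays that did not overlap between substrates, against 38.5% and 39.1% of all genes. Slc40a1, around whose Matrigel difference the list was drawn up, is in both counts, so they are a description and not a test. None of the 9 passed the test for a different Matrigel response in Fz4-/- cells, and none had an unadjusted p below 0.05 there. Of all genes, 0.0165% passed. The difference for Hmox1 was 0.59 ± 0.45 (95% interval -0.40 to 1.57), and without replicate 1 of every group it was 0.83 with a limma adjusted p of 0.0222.

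**Figure D2:**
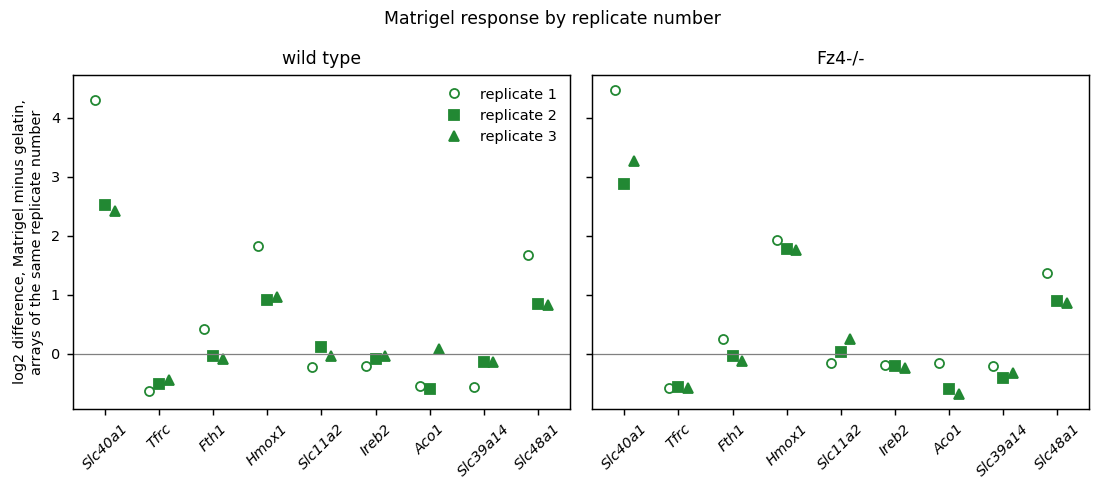
Matrigel minus gelatin log2 difference of each iron handling gene between arrays with the same replicate number, 3 points per gene, in wild type (left) and Fz4-/- cells (right). The Slc40a1 points lie between 2.42 and 4.47, with replicate 1 highest in both genotypes, and those of Tfrc all lie below 0.

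Other genes of the same pathways were read from lists of iron uptake, storage and export partners, heme synthesis, heme transport, mitochondrial iron and iron regulators. Of 75 such genes measured, 4 rose and 9 fell on Matrigel in wild type cells (limma adjusted p below 0.05), and 5 rose and 10 fell in Fz4-/- cells. The median difference of the 75 was -0.03 and -0.05, as it was -0.05 and -0.05 over all genes, and of all genes 18.4% and 19.7% passed in either direction. With the replicate number as a block, 22 and 23 of the 75 passed, as did 26.4% and 28.2% of all genes. The wild type count of 13 was 7 or 8 without replicate 2 or 3 of either wild type group, and the Fz4-/- count of 15 was 8 without replicate 3 on gelatin. The share of all genes fell as well, to 11.7% to 12.9% in those wild type fits and to 12.8% in that Fz4-/- fit. With replicates 2 and 3 averaged into 1 sample, 1 and 2 passed, and 3.16% and 3.91% of all genes. The metalloreductases moved in both directions: Steap1 fell by 0.89 ± 0.14 (SE, n = 3 per group) in wild type and 0.86 ± 0.14 in Fz4-/- cells, while Steap4 rose by 0.72 ± 0.20 and 0.84 ± 0.20. The Steap4 call was lost in wild type cells without replicate 2 or 3 on Matrigel or replicate 1 or 3 on gelatin (0.48 to 0.76, limma adjusted p = 0.0520 to 0.0835), and in Fz4-/- cells without replicate 2 on Matrigel (0.70, limma adjusted p = 0.0505). It was lost in both genotypes with a gene's probe sets averaged (limma adjusted p = 0.230 and 0.163), and in wild type cells with only the 2 groups compared in the fit (limma adjusted p = 0.0628). The mitochondrial and lysosomal porphyrin transporter Abcb6 rose by 0.51 ± 0.13 and 0.61 ± 0.13, and its wild type call was lost without replicate 2 on Matrigel or replicate 2 or 3 on gelatin (0.47 to 0.50, limma adjusted p = 0.0637 to 0.0805). Maff, a small MAF partner of NRF2 and BACH1, fell by 1.64 ± 0.14 and 1.73 ± 0.14 on the log2 scale.

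Hmox1, Fth1 and Slc40a1 are known targets of the transcription factor NRF2 and its competitor BACH1, a heme sensor, and a list of 13 further measured targets was read beside them. On Matrigel 6 of the 13 rose and none fell in wild type cells, with a median of 0.59, and 7 of the 13 rose and none fell in Fz4-/- cells, with a median of 0.36. Of all genes, 6.71% and 7.91% rose. Slc7a11, the cystine importer, rose by 1.32 ± 0.27 (SE, n = 3 per group) in wild type and 1.24 ± 0.27 in Fz4-/- cells. Nqo1, a quinone reductase, rose by 1.30 ± 0.29 and 1.66 ± 0.29. Gclm, a subunit of the enzyme that starts glutathione synthesis, rose by 1.14 ± 0.24 in wild type cells, and the sulfiredoxin gene Srxn1 rose by 1.12 ± 0.22 in Fz4-/- cells. Txnrd1, Pgd, Gsr, Taldo1 and Txn1 did not pass in either genotype in the main fit, with differences of 0.05 to 0.71. With the replicate number as a block, 10 of the 13 passed in wild type and 9 in Fz4-/- cells, Txnrd1 and Pgd in both and Taldo1 in wild type cells, where 26.4% and 28.2% of all genes passed in either direction. With replicates 2 and 3 averaged into 1 sample, 1 and 2 of the 13 passed, and 3.16% and 3.91% of all genes.

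**Figure D3:**
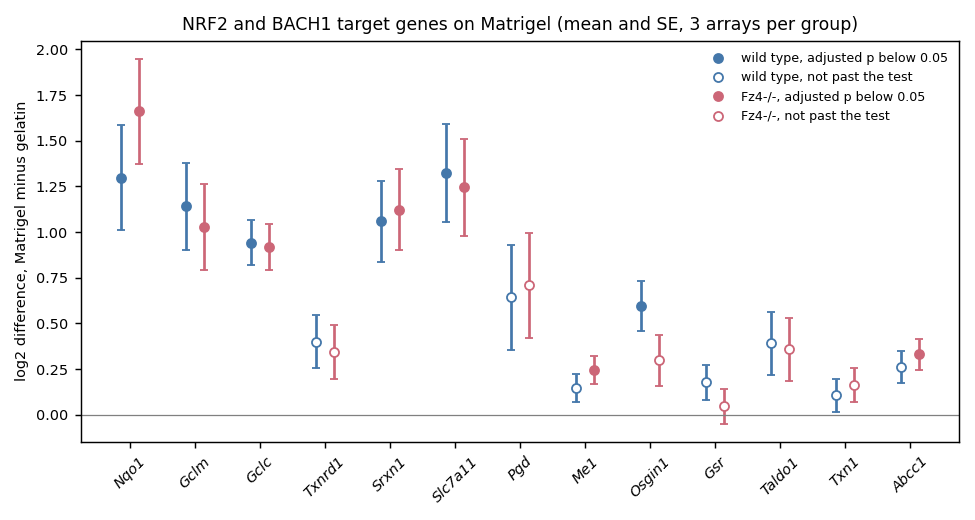
Matrigel minus gelatin log2 difference of 13 NRF2 and BACH1 target genes in wild type (blue) and Fz4-/- cells (red), with points at the mean of 3 against 3 arrays, bars of 1 SE and filled points for genes past the test. All 13 means lie above 0 in both genotypes, and 6 in wild type and 7 in Fz4-/- cells are filled.

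Between the genotypes on gelatin, where 14.9% of all genes passed, 1 of the 9 iron handling genes did. Ireb2, whose protein is degraded when iron is plentiful, read 8.54, 8.44 and 8.40 in wild type and 8.70, 8.72 and 8.76 in Fz4-/- cells. The groups did not overlap, and the difference was 0.27 ± 0.07 (SE, n = 3 per group, limma adjusted p = 0.0205). The call was lost without replicate 2 or replicate 3 of either group, with limma adjusted p of 0.0570 to 0.0819. Hmox1 was lower in Fz4-/- cells by 0.80 ± 0.32, with no overlap but little margin, since replicate 1 of the Fz4-/- group read 10.64 against a lowest wild type value of 10.65. This difference did not pass (limma adjusted p = 0.124), and between arrays of the same replicate number it was -0.01, -1.19 and -1.20. Without that Fz4-/- array it was -1.11 with a limma adjusted p of 0.0375, and with the replicate number as a block it was -0.80 with a limma adjusted p of 0.0281.

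On Matrigel none of the 9 differed between genotypes past the threshold, 1 had an unadjusted p below 0.05, and 15.7% of all genes passed. That gene was Ireb2, at 0.16 ± 0.07 (SE, n = 3 per group, limma adjusted p = 0.152), again higher on every Fz4-/- array. Without replicate 1 of every group, 3 of the 9 passed, where 26.7% of all genes did: Slc40a1 as given above, Hmox1 at -0.37 (limma adjusted p = 0.0039) and Slc48a1 at -0.25 (limma adjusted p = 0.0160). Among the 75 other iron and heme genes, 6 were higher and 9 lower in Fz4-/- cells on gelatin, and 2 higher and 10 lower on Matrigel. With the replicate block 25 and 23 passed, where 22.7% and 24.1% of all genes did, and the gelatin count of 15 was 9 without replicate 1 of the Fz4-/- or replicate 3 of the wild type group. Without those arrays 11.7% and 9.87% of all genes passed. On gelatin Bmp2, a ligand that can induce the iron hormone hepcidin, was lower in Fz4-/- cells by -2.76 ± 0.21, and Lrp1, a scavenger receptor that takes up heme bound to hemopexin, by -1.63 ± 0.28. The ferroxidase ceruloplasmin (Cp), which works with ferroportin, was higher by 0.90 ± 0.11, while the related ferroxidase hephaestin (Heph) was lower by -1.33 ± 0.23. Cp averaged 8.30 in Fz4-/- and 7.40 in wild type cells, and Heph 2.75 and 4.08, both below the array median.

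In wild type co-cultures with Norrin-expressing HEK293 cells, 4 of the 9 iron handling genes passed the test, 1 higher and 3 lower, where 9.57% of all genes passed, 5.39% higher and 4.18% lower. Ferritin heavy chain, the heme transporter Slc48a1 and the iron transporter Slc11a2 fell, and Ireb2 rose. The median difference of the 9 was -0.36, against -0.02 over all genes. Co-culture RNA holds transcripts of both species, and the part of human RNA in these signals was not tested. Fewer endothelial cells and less RNA per cell cannot be told apart in such samples. The mean log2 level of 12 pan-endothelial markers was 6.32 to 6.57 with control and 7.15 to 7.51 with Norrin-expressing HEK293 cells, with 11 of the 12 past the test and higher, and its part in the iron handling differences was not tested.

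Fth1 encodes the ferritin subunit that oxidises iron for storage. Its log2 intensity in wild type cells was 11.87, 12.09 and 12.08 with control and 11.21, 10.99 and 11.14 with Norrin-expressing HEK293 cells. The groups did not overlap, and the difference was -0.90 ± 0.10 (SE, n = 3 per group, limma adjusted p = 1.36e-05). A second Fth1 probe set read 11.43 to 11.52 against 10.003 to 10.26, a difference of -1.32 ± 0.10. Fth1 in Fz4-/- cells read 11.84, 11.82 and 11.71 with control and 11.94, 11.999 and 11.93 with Norrin-expressing HEK293 cells, which was 0.17 ± 0.10 higher (limma adjusted p = 0.712). The responses of the genotypes differed by 1.07 ± 0.15 (95% interval 0.76 to 1.38, limma adjusted p = 0.00043). Genotype and array set cannot be told apart in this and the later differences of responses.

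Of the 4 genes that passed in wild type cells, RefSeq's promoter table held Fth1 and Ireb2, 1 lower and 1 higher with Norrin, and the 250 bases before an annotated start are shown for comparison (GRCm38.p6, plus strand, 5′ to 3′). Capitals mark a CCAAT box (CCAAT or, on the other strand, ATTGG) and GC boxes (GGGCGG or CCGCCC). For Fth1 the window precedes the downstream of 2 annotated starts, chr19:9982396-9982645, and for Ireb2 it is chr9:54863505-54863754.
Fth1: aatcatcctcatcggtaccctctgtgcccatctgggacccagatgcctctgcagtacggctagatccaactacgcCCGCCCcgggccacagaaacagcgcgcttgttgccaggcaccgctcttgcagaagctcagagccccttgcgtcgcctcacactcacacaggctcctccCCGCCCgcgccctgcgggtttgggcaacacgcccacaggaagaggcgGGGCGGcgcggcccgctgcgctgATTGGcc
Ireb2: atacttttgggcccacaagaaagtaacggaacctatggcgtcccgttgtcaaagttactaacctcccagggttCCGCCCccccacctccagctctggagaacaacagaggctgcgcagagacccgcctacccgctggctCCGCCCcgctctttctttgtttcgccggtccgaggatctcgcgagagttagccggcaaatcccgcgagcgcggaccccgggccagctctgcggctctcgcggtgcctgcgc
The window before the upstream Fth1 start, chr19:9980350-9980599, held no CCAAT box and no GC box, with 34.8% G and C, and is not printed. The printed Fth1 window held 1 CCAAT box, in its last 10 bases, and 3 GC boxes, with 66.8% G and C. The Ireb2 window held no CCAAT box and 2 GC boxes, with 63.6% G and C. Of 32851 promoter windows of the same length, 33.8% held a CCAAT box and 32.7% a GC box on either strand. The core letters of the antioxidant response element, TGACNNNGC (10.2% of windows), and the letters CACGTG (6.02%) and ACGTG, which CACGTG contains (16.6%), were searched on both strands and were in none of these windows.

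Slc48a1 read 7.19, 7.41 and 7.56 in wild type cells with control and 6.17, 6.38 and 6.41 with Norrin-expressing HEK293 cells, without overlap. It fell by 1.07 ± 0.12 (SE, n = 3 per group) on the log2 scale with a limma adjusted p of 6.9e-06, and its other probe set fell by 0.57 ± 0.15. The same probe set in Fz4-/- cells read 6.33, 6.56 and 6.50 against 6.20, 6.36 and 6.26, overlapping groups that differed by -0.19 ± 0.12. The responses differed by 0.88 ± 0.17 (95% interval 0.53 to 1.23, limma adjusted p = 0.00688). That call was not made when the gene's probe sets were averaged, where the difference was 0.69 (limma adjusted p = 0.0528), or with replicates 2 and 3 averaged into 1 sample, where it was 0.88 (limma adjusted p = 0.144).

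Hmox1 had Norrin differences of opposite sign in the genotypes, and neither passed the test by itself. Its log2 intensity was 6.59, 6.92 and 6.99 with control and 6.18, 6.46 and 6.65 with Norrin-expressing HEK293 cells in wild type co-cultures, a difference of -0.40 ± 0.13 (SE, n = 3 per group, limma adjusted p = 0.0540). In Fz4-/- co-cultures it read 6.32, 6.23 and 6.23 against 6.79, 6.83 and 6.83, a difference of 0.56 ± 0.13 (limma adjusted p = 0.0697). The groups overlapped in wild type and did not in Fz4-/- cells. With the replicate number as a block, the limma adjusted p was 0.0344 in wild type and 0.0394 in Fz4-/- cells. The responses differed by 0.96 ± 0.18 (95% interval 0.58 to 1.34, limma adjusted p = 0.00663), and with replicates 2 and 3 averaged into 1 sample by 0.94 (limma adjusted p = 0.157).

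Slc11a2 read 5.55, 5.97 and 5.53 in wild type cells with control and 4.98, 5.06 and 4.56 with Norrin-expressing HEK293 cells, and fell by 0.81 ± 0.15 (SE, n = 3 per group, limma adjusted p = 0.00193) without overlap. Of its 3 other probe sets, 1 fell by 0.70 ± 0.14, and the others, at -0.33 and -0.34, did not pass. Ireb2 read 5.18, 5.29 and 5.62 against 5.62, 5.88 and 5.90, a rise of 0.44 ± 0.12 (limma adjusted p = 0.0303) with the groups touching at 5.62. That call was lost without replicate 1 or 2 of the control group or replicate 2 or 3 of the Norrin group, with limma adjusted p of 0.0987 to 0.119. Slc11a2 in Fz4-/- cells differed by -0.17 ± 0.15 and Ireb2 by 0.22 ± 0.12, and the difference of responses did not pass for either (limma adjusted p = 0.177 and 0.729).

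**Figure D4:**
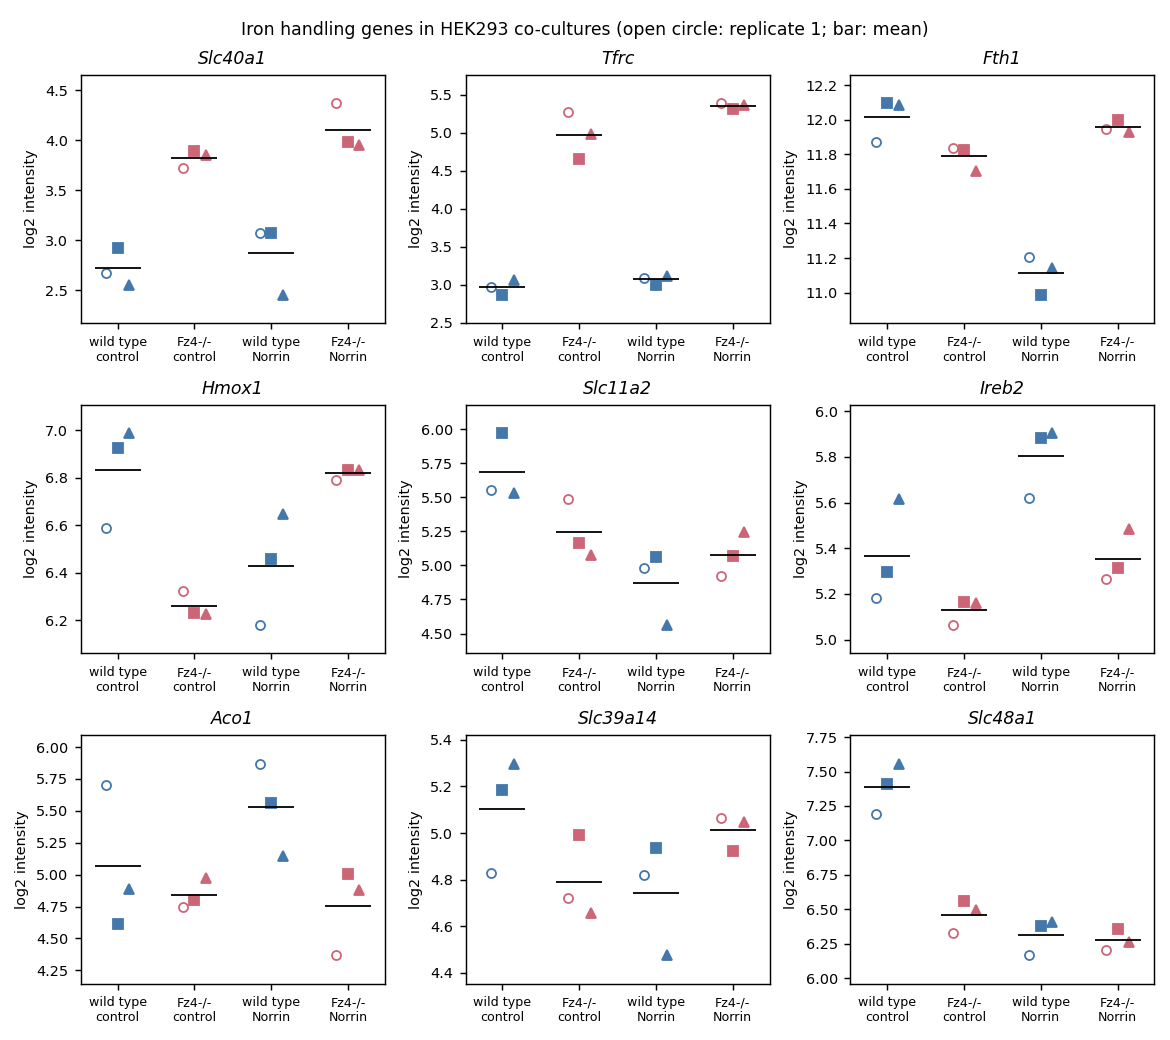
Log2 intensity of the 9 measured iron handling genes on each co-culture array, 3 arrays per group, with the group mean as a bar and replicate 1 as an open circle; vertical axes differ between genes and do not start at 0, and levels of the genotypes lie in different array sets. In wild type cells Fth1 and Slc48a1 sit lower on all 3 Norrin arrays than on the control arrays, and in Fz4-/- cells Fth1 and Hmox1 sit higher.

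The remaining genes did not pass in wild type co-cultures. Ferroportin was below the array median there: Slc40a1 read 2.68, 2.92 and 2.56 with control and 3.07, 3.07 and 2.45 with Norrin-expressing HEK293 cells, a difference of 0.15 ± 0.16 (SE, n = 3 per group, 95% interval -0.18 to 0.48). Slc40a1 in Fz4-/- cells read 3.73, 3.89 and 3.85 against 4.37, 3.98 and 3.95, a difference of 0.28 ± 0.16 (95% interval -0.06 to 0.61). The groups overlapped in wild type and did not in Fz4-/- cells, and the second probe set read 3.28 to 3.52 on the Fz4-/- arrays. Tfrc differed by 0.10 ± 0.13 in wild type and 0.38 ± 0.13 in Fz4-/- cells (limma adjusted p = 0.749 and 0.335), Aco1 by 0.46 ± 0.23 and -0.09 ± 0.23, and Slc39a14 by -0.36 ± 0.14 and 0.22 ± 0.14.

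In Fz4-/- co-cultures none of the 9 passed, 2 had an unadjusted p below 0.05 (Hmox1 and Tfrc), and 0.456% of all genes passed. For the difference between the genotypes' responses, 3 of the 9 passed, Fth1, Hmox1 and Slc48a1, all with a higher response in Fz4-/- cells, against 2.12% of all genes in either direction and 0.874% in that direction. All 3 calls were kept when each of the 12 co-culture arrays was left out in turn. The genotypes lay in different array sets, so genotype and array set cannot be told apart in these differences. The mean log2 level of the pan-endothelial markers in Fz4-/- cells was 7.57 to 7.71 with control and 7.82 to 8.01 with Norrin-expressing HEK293 cells, and 1 of 12 passed. For 5 of the 12 the difference between the genotypes' responses passed, and its part in the differences of Fth1, Hmox1 and Slc48a1 was not tested.

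**Figure D5:**
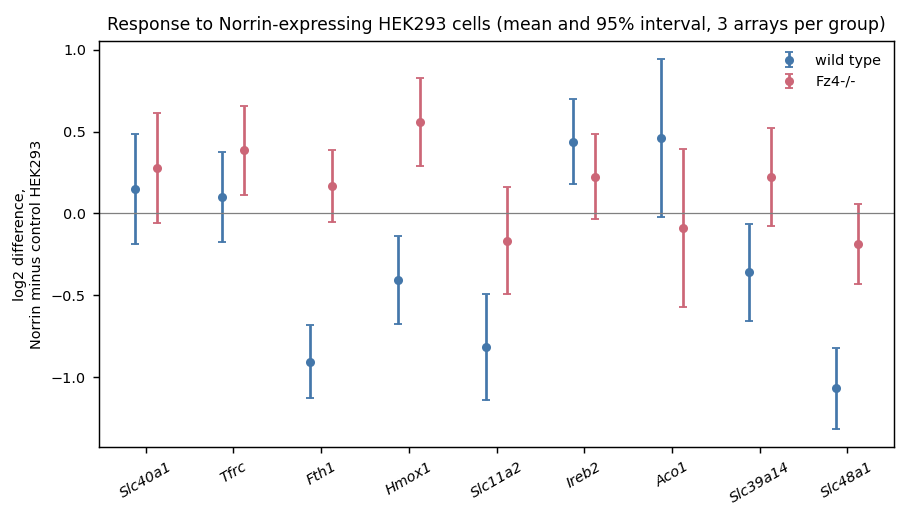
Log2 difference between Norrin-expressing and control HEK293 co-cultures for each of the 9 iron handling genes in wild type (blue) and Fz4-/- cells (red), with points at the mean of 3 against 3 arrays and bars of the 95% interval. The intervals of the genotypes do not meet for Fth1, Hmox1 and Slc48a1, and those of Slc40a1 include 0 in both.

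Of the 75 other iron and heme genes, 5 rose and 6 fell with Norrin in wild type co-cultures, where 9.57% of all genes passed. None rose and 1 fell in Fz4-/- co-cultures, where 0.456% of all genes passed. The response differed for 7, against 2.12% of all genes, and 3 had the higher and 4 the lower response in Fz4-/- cells. Lcn2, a secreted protein that carries iron bound to siderophores, fell by 5.80 ± 0.16 (SE, n = 3 per group) on the log2 scale in wild type and by 2.07 ± 0.16 in Fz4-/- cells. Its mean was 8.97 with control and 3.17 with Norrin-expressing HEK293 cells in wild type, and 5.23 and 3.16 in Fz4-/- co-cultures. Both Norrin means lay below the array median, and the part of the control levels in these unlike falls was not tested. Cp fell by 0.93 ± 0.13 and its relative Heph rose by 0.64 ± 0.10 in wild type cells. Heph averaged 2.52 with control and 3.16 with Norrin-expressing HEK293 cells there, both below the array median. Bmp6, the endothelial ligand that induces hepcidin in the liver, rose by 0.85 ± 0.16. The heme and porphyrin exporter Abcg2 rose by 1.04 ± 0.12, the mitochondrial iron importer Slc25a37 (mitoferrin 1) fell by 0.84 ± 0.14, and Cisd2, an iron-sulfur protein of the endoplasmic reticulum, rose by 1.08 ± 0.11. Of the 13 NRF2 and BACH1 target genes none rose and 1 fell in wild type cells, Osgin1 by 0.56 ± 0.10, where 5.39% of all genes rose and 4.18% fell.

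Fz4-/- and wild type co-cultures lay in different array sets, and genotype and array set cannot be told apart. Of the 9 iron handling genes, 5 passed with control HEK293 cells, 2 higher and 3 lower in Fz4-/- cells, and 6 with Norrin-expressing HEK293 cells, 4 higher and 2 lower, where 50.9% and 49.9% of all genes passed. The count with control HEK293 cells was 8 without replicate 1 of the wild type control group, where 48.2% of all genes passed. The median of all genes was -0.20 in both comparisons. The 3' minus 5' difference of the Tfrc control probe sets was 0.60 to 0.88 on the wild type and 1.76 to 2.13 on the Fz4-/- co-culture arrays, without overlap, and its part in these differences was not tested. Probe sets of a gene disagreed here. For Tfrc, the probe set with the highest mean was higher in Fz4-/- co-cultures by 2.00 ± 0.13 (SE, n = 3 per group) with control and 2.28 ± 0.13 with Norrin-expressing HEK293 cells, while another was lower, by -0.49 ± 0.11 and -0.52 ± 0.11. For Slc40a1, the probe set with the higher mean was higher by 1.11 ± 0.16 and 1.23 ± 0.16, while the other differed by 0.03 ± 0.12 and 0.04 ± 0.12.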

How the data were processed

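Total RNA was hybridised to 24 Affymetrix mouse arrays. The deposited values are log2 intensities made by the authors with RMA, as the submitters' processing notes say without a version; which arrays were normalized together is not given in the sources used here. Of 45101 probe sets, 34945 with 1 gene symbol were kept, and each of 18193 genes was read from the probe set whose average across the 24 arrays was highest. The number of arrays limits the precision.

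Differences were fitted with limma 3.58.1 (R 4.3.3), apart for the 12 arrays of cells grown alone and the 12 co-culture arrays, with 8 residual degrees of freedom each and Benjamini-Hochberg adjustment over all genes (threshold 0.05). The procedure was tested on simulated data. The iron handling genes, lists, tests and alternatives were chosen with earlier results of these data known. Named are all listed genes, Fzd4, up to 3 genes per iron, heme and NRF2 list with the largest differences past the threshold (the text gives some of these), the 5 nearest to Slc40a1, and the macrophage markers Ptprc and Cd68, chosen after their values were seen; NRF2 targets past no threshold are named only with their range.

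The labels number the replicates alike. Deviations from group means of same-numbered arrays correlated at 0.243 to 0.718 in every pair of cells grown alone, and at -0.186 to 0.372 in the co-cultures. Arrays correlated best with their own number in 2 of 6 cases for Matrigel in wild type cells. Between genotypes with Norrin-expressing HEK293 cells this was so in 6 of 6. The labels do not say that a number marks a shared day or batch. The main fit therefore has no block, and the replicate block is given as an alternative. Alternatives were other normalizations, probe set choices, a level filter, a trended robust variance, the replicate block, only the groups compared, and arrays left out or averaged. Figures were made with matplotlib 3.10.9 and pandas 2.3.3 in Python 3.11.15.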

Additional observations from a re-analysis of the deposited data

Results flagged for a closer look

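For 3 of the 9 iron handling genes the response to Norrin-expressing HEK293 cells differed between the genotypes in limma's test of the difference itself, each with the higher response in Fz4-/- cells. The difference was 1.07 for Fth1, 0.96 for Hmox1 and 0.88 for Slc48a1 on the log2 scale. Wild type and Fz4-/- co-cultures lay in different array sets, so genotype and array set cannot be told apart here. In wild type co-cultures all 3 Norrin arrays lay below all 3 control arrays for Fth1 and Slc48a1, and the groups overlapped for Hmox1. In Fz4-/- co-cultures all 3 Norrin arrays lay above the control arrays for Fth1 and Hmox1, and the groups overlapped for Slc48a1. Neither of these rises passed the test (limma adjusted p = 0.712 for Fth1 and 0.0697 for Hmox1). Of the 9 genes, 5 had no overlap in Fz4-/- co-cultures, and none passed.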

How the results depend on the processing

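The count of iron handling genes past the threshold between genotypes on gelatin (1) was 2 with the replicate block, 0 with only the 2 groups compared, 3 without replicate 1 of every group and 0 with replicates 2 and 3 averaged. The share of all genes (14.9%) was 22.7%, 12.2%, 27% and 3.67% under these settings. On Matrigel (0) it was 3 without replicate 1 of every group (all genes 26.7%), and for the difference in the Matrigel response (0) it was 1 (all genes 0.335%). For Norrin in Fz4-/- cells (0) it was 1, always Hmox1, under quantile normalization, among genes above the median level, with the replicate block, with only the 2 groups compared and without replicate 1 of every group, where 0.533% to 0.901% of all genes passed. In another setting, probe sets whose names end in _x_at, _s_at or _a_at were left out, among them those used for Fth1, Slc11a2, Aco1 and Slc48a1. In that setting 7 of the genes were measured, and Norrin called 1 in wild type cells (4) and 1 for the difference in response (3), against 8.49% and 1.86% of all genes. Averaging replicates 2 and 3 also left 1 for that difference (all genes 0.495%). Between genotypes with control HEK293 cells (5), 3 of the 7 genes above the median level passed, where 54.9% of all genes did. Aco1 turned there from -0.23 to 0.51 (limma adjusted p = 0.0156) on its probe set without these name endings. Leaving out each array in turn gave 0 to 2 between genotypes on gelatin, 0 on Matrigel and for the Matrigel difference, 3 to 6 for Norrin in wild type cells, 0 in Fz4-/- cells, 3 for the difference, and 4 to 8 and 4 to 6 between genotypes with control and Norrin-expressing HEK293 cells. In these fits 9.87% to 14.3% of all genes passed between genotypes on gelatin. For Norrin in wild type cells 6.96% to 11.9% passed, and for the difference 1.28% to 3.09%. Between genotypes 42.9% to 48.2% passed with control and 41.1% to 47.3% with Norrin-expressing HEK293 cells. The Matrigel difference of Slc40a1 stayed at 2.55 to 3.39 and 2.85 to 3.89. Beyond the 3 values for Hmox1 given in the report, the replicate block changed no other call among the listed genes.

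Of the 75 other iron and heme genes, the replicate block called 25 and 23 between genotypes on gelatin (15) and Matrigel (12), and 22 and 23 for Matrigel in wild type (13) and Fz4-/- cells (15). Without replicate 1 of every group the same counts were 29, 28, 23 and 33, and with replicates 2 and 3 averaged they were 5, 4, 1 and 2 (all genes 27%, 26.7%, 28% and 30.2%, then 3.67%, 4.05%, 3.16% and 3.91%), with 7 for Norrin in wild type cells (11) and 2 for the difference in response (7). Of all genes, 3.8% and 0.495% passed for the Norrin counts with replicates 2 and 3 averaged. Matrigel in wild type cells called 20 when probe sets of a gene were averaged and 7 among 55 genes above the median level (all genes 19.3% and 13.6%). Without _x_at, _s_at and _a_at probe sets the Norrin difference called 4 of 65 (all genes 1.86%). Leaving out each array gave 9 to 18, 8 to 12, 7 to 14, 8 to 18, 8 to 13 and 6 to 7 in the order genotype on gelatin and on Matrigel, Matrigel in wild type and Fz4-/- cells, Norrin in wild type cells and the difference. In the same order, 9.87% to 14.3%, 10.5% to 14.3%, 11.7% to 15%, 12.8% to 16.7%, 6.96% to 11.9% and 1.28% to 3.09% of all genes passed. Of the 13 NRF2 and BACH1 targets, 10 passed in wild type cells under quantile normalization and with the replicate block, 1 and 2 passed in wild type and Fz4-/- cells with replicates 2 and 3 averaged, and 6 and 5 to 6 passed with each array left out.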
